A study of Homo sapiens with 6 samples.

Results

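The genes described here are 46 genes of the NRF2 antioxidant and glutathione system, taken by gene symbol from a list of pathway genes drawn up with earlier results of these data known, among the 23345 gene symbols of the table. All 46 had a row, and 45 had enough reads to be tested, out of 15079 tested genes. RNA was sequenced from A375, a human melanoma line that is long established and driven by mutant BRAF, grown in DMEM with fetal bovine serum. Every culture had been infected with a lentivirus: the control group received one that expresses GFP and the other group one that expresses murine BMI1, with 3 libraries each. BMI1 belongs to Polycomb repressive complex 1, which silences chromatin. The sources used here do not give the promoter of the transgene, the time after infection, or whether cells were cloned or pooled. Nothing in the labels says that replicates came from separate cultures. The p-values therefore reflect the spread among these 6 libraries alone, and that spread may be technical.

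NRF2, the protein made from NFE2L2, is a transcription factor that the adaptor KEAP1 holds in check by sending it for degradation. Oxidants and electrophiles modify KEAP1, NRF2 then accumulates, pairs with small MAF proteins and binds antioxidant response elements near genes for glutathione synthesis, thioredoxin reduction, NADPH supply, quinone reduction and iron storage. The pathway is set largely at the level of protein, so that the RNA of NFE2L2 and KEAP1 is not a measure of NRF2 activity. In melanoma these enzymes are known for their part in redox balance under drug treatment.

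The libraries held between 20221432 and 30388937 estimated counts. Levels are given as CPM, estimated counts relative to library size, with library sizes scaled by TMM to correct for differences in composition. The BMI1 row, which can mix human reads with aligned reads of the murine transgene, held 89.4 ± 6.87 and 515 ± 8.51 CPM in GFP and BMI1 libraries (SD, n = 3). GFP replicate 1 lay apart from the other GFP libraries on the second principal component, at 26.0 against -12.4 and -12.2, so counts are also given without it. Of 8 melanocyte lineage markers, whose sum ran from 677 to 823 CPM in GFP and from 686 to 759 CPM in BMI1 libraries, SOX10, MITF and S100B made up nearly all, and TYR, DCT, PMEL, MLANA and TYRP1 each lay under 1 CPM. The summed level of 5 fibroblast markers ran from 15.3 to 18.1 CPM in GFP and from 32.5 to 33.7 CPM in BMI1 libraries, with 3 of 4 tested markers raised and COL3A1 near 0. Summed levels ran from 0.265 to 0.383 and from 0.149 to 0.244 CPM for 4 leukocyte markers, from 2.98 to 4.09 and from 4.64 to 5.36 CPM for 4 keratinocyte markers, from 2.40 to 2.42 and from 2.83 to 3.66 CPM for 3 endothelial markers, and from 0.265 to 0.623 and from 1.61 to 1.79 CPM for 2 erythroid markers, with HBB and KRT1 at 0 counts. Their part in the results was not tested, and in bulk RNA fewer cells of a type and less RNA per cell cannot be told apart.

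In BMI1 cells the 2 ferritin subunits, FTL and FTH1, had the smallest adjusted p-values of the list and fell, and with them fell the quinone reductase NQO1, the NADPH-producing malic enzyme ME1, the transketolase TKT, the thioredoxin system enzymes TXNRD1 and PRDX1 and the transferase MGST1. The glutathione transferases GSTA4, GSTM1, GSTM3, GSTM4 and MGST2, the peroxidases GPX3 and GPX7, the peroxiredoxin PRDX2 and the thioredoxin-binding protein TXNIP rose, as did the haem oxygenase HMOX1. Fold changes were modest throughout. The median log2 fold change, BMI1 over GFP, was -0.01 for the tested genes of the list and -0.01 for all tested genes, and the list ran from -0.52 to 0.52.

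By edgeR's quasi-likelihood test at an adjusted p of 0.05, rises numbered 10 and falls 8 among the 45 genes, and 27 did not pass. That is 40.0% called, where 26.4% of all tested genes were called, with 22.2% raised against 17.1% and 17.8% lowered against 9.32%. The listed genes are more highly expressed than most, with a median of 87.3 CPM against 25 CPM. Among genes of at least 10 CPM, 17 of 42 listed genes passed (40.5%), against 25.8% of all genes at that level. No listed gene passed with a change of 1.5-fold or more, a size reached by 8.36% of all tested genes as rises and by 1.46% as falls. Libraries of the groups did not overlap for 25 of the 45 genes, against 40.1% of all tested genes. They were higher in each BMI1 library for 13 of them, against 22.7% of all tested genes, and lower for 12, against 17.4%. Without GFP replicate 1 the counts were 13 raised and 12 lowered, with 20.9% of all tested genes raised and 16.0% lowered. With each library corrected for the GC content of transcripts they were 11 raised and 14 lowered, with 21.1% of all tested genes raised and 17.0% lowered. The median GC content was 51.4% for the raised and 47.8% for the lowered genes of the list, against 56.0% and 44.3% for all raised and all lowered genes.

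**Figure D1:**
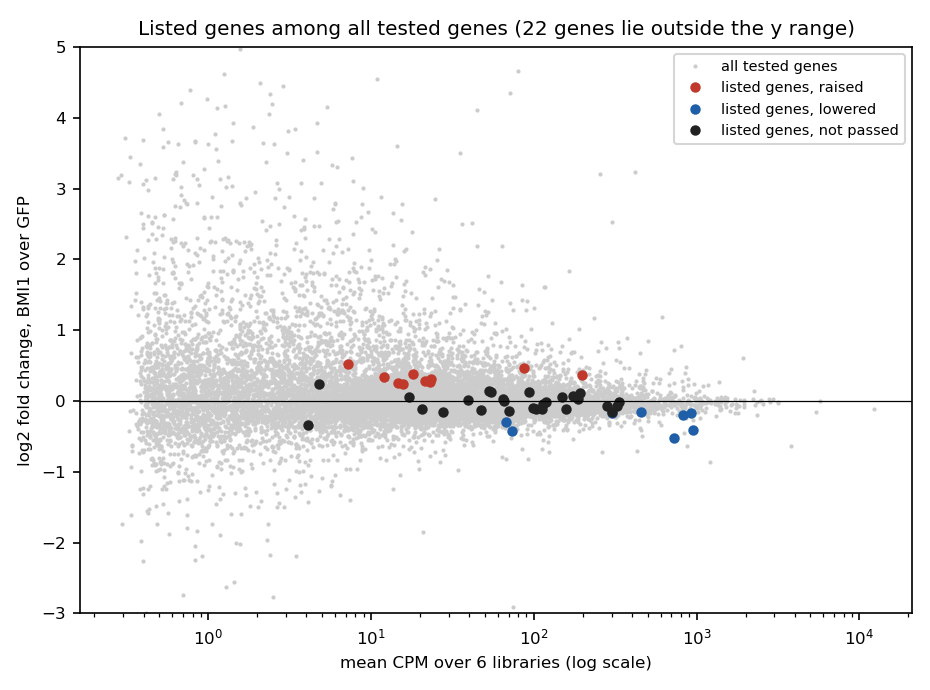
Log2 fold change of BMI1 over GFP (y axis) against mean CPM over the 6 libraries (x axis, log scale) for all tested genes (grey) and for the listed genes by call (colours), with 22 genes outside the y range. The listed genes lie between -0.52 and 0.52, inside the spread of all genes, and the lowered ones reach the highest levels.

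**Figure D2:**
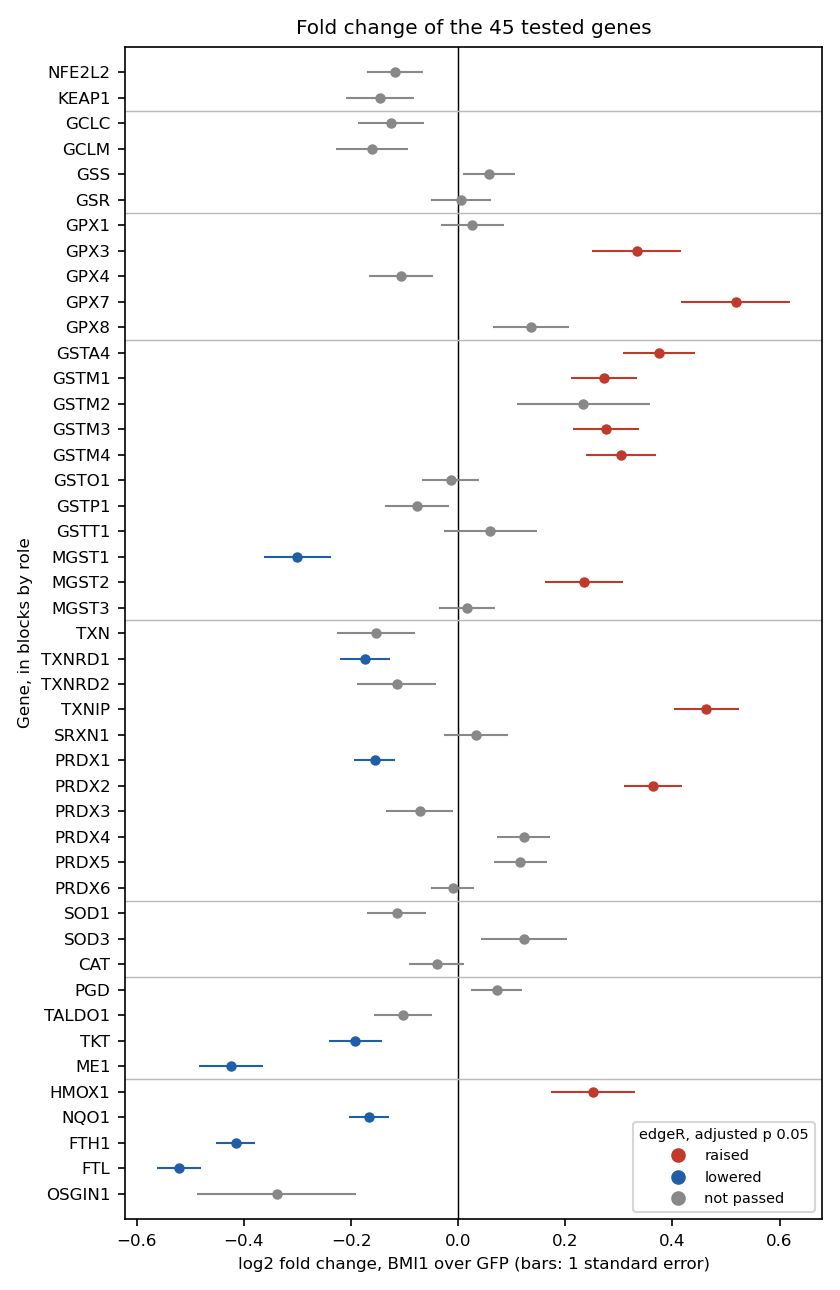
Log2 fold change of BMI1 over GFP with 1 standard error for each of the 45 tested genes, in blocks by role and coloured by the edgeR call. FTL, ME1 and FTH1 lie lowest, at -0.52, -0.42 and -0.42, and GPX7 and TXNIP highest, at 0.52 and 0.46.

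Summed over all 46 genes, the list took 8393, 8413 and 8341 CPM in GFP replicates 1, 2 and 3 and 7466, 7549 and 7628 CPM in BMI1 replicates 1, 2 and 3. The groups did not overlap, and the sum was lower in each BMI1 library. The ferritin genes made up 1953 ± 9.88 CPM of it in GFP and 1418 ± 32.5 CPM in BMI1 cells (SD, n = 3). Without these 2 genes the sum was 6430 ± 27.7 and 6130 ± 60.7 CPM in GFP and BMI1 cells. Such a sum weighs abundant genes most. NQO1 had means of 972 and 866 CPM and TKT of 881 and 771 CPM in GFP and BMI1 cells. By gene, 10 of the list rose and 8 fell, with a median log2 fold change of -0.01.

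Neither regulator passed the test. NFE2L2 stood at 111, 119 and 122 CPM in GFP and 108, 109.9 and 107 CPM in BMI1 replicates 1, 2 and 3. Each BMI1 library lay below each GFP library, by a small margin, with a log2 fold change of -0.12 (SE 0.05, adjusted p = 0.123). It passed without GFP replicate 1 (log2 fold change -0.15, adjusted p = 0.0153), while GC correction brought it to -0.04 (adjusted p = 0.38). KEAP1 stood at 78.1, 73.6 and 71.1 CPM in GFP and 69.7, 62.7 and 68.8 CPM in BMI1 replicates 1, 2 and 3. Its libraries did not overlap either, and the log2 fold change was -0.15 (SE 0.06, adjusted p = 0.115). After GC correction KEAP1, whose transcripts have a GC content of 60.6%, passed at -0.24 (adjusted p = 0.000398).

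The antioxidant response element has the core TGACNNNGC. It was searched on both strands of RefSeq promoter windows of 300 bases, from 250 bases before to 50 after an annotated start (GRCh38.p14), a window that does not reach more distant elements. Of the 46 genes, 37 had a window, and 12 of their 48 windows (25%) held the core, against 13.3% of all 35116 windows. The called genes FTH1, PRDX1, HMOX1 and MGST2 had no window and were not searched. Nor were GSS, GSR, GSTT1, PRDX6 and SOD1, which did not pass. Matches lay in windows of 11 genes, of which GSTA4 and GSTM1 rose, MGST1, TXNRD1 and ME1 fell, GPX2 was not tested, and KEAP1, GCLM, GSTO1, GSTP1 and PGD did not pass. Genes with a match thus stood among the raised, the lowered and those that did not pass. The matches are shown for the lowered and raised genes and, for comparison, for GCLM and GSTP1, on the strand of the gene, with the 9 bases of the match in capitals and 10 bases on each side. A match whose capitals begin with GC is the core read from the opposite strand.
ME1, chr6:83431170-83431198, minus strand: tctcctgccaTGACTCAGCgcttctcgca
ME1, chr6:83431022-83431050, minus strand: gctgcagtcaGCACCGTCAccccagcagc
TXNRD1, chr12:104215670-104215698, plus strand: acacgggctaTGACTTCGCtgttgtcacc
TXNRD1, chr12:104215761-104215789, plus strand: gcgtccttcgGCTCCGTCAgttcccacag
TXNRD1, chr12:104286920-104286948, plus strand: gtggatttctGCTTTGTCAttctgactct
MGST1, chr12:16347135-16347163, plus strand: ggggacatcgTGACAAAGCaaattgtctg
GSTA4, chr6:52995275-52995303, minus strand: ccgggaccgcTGACCTGGCgctttgtgcg
GSTM1, chr1:109687642-109687670, plus strand: ctgggcgcccTGACTTCGCtcccggaacc
GCLM, chr1:93909446-93909474, minus strand: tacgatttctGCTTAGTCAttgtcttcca
GSTP1, chr11:67583736-67583764, plus strand: gccggcgccgTGACTCAGCactggggcgg

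The matched 9 bases on the gene's strand were the same in ME1 and GSTP1, TGACTCAGC, and the same in TXNRD1 and GSTM1, TGACTTCGC. ME1 fell and GSTP1 did not pass, with log2 fold changes of -0.42 and -0.08. TXNRD1 fell while GSTM1 rose, and the base just before their shared 9 bases differed. Whether the matches have a part in these changes was not tested. The upstream windows of a lowered and a raised gene with 1 match each in these 250 bases are given for context.
ME1, chr6:83431052-83431301, minus strand: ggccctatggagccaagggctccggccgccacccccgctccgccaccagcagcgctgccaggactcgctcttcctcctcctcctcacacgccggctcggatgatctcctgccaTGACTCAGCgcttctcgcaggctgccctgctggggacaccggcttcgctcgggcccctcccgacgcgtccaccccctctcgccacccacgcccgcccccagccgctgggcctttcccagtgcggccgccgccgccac
GSTM1, chr1:109687567-109687816, plus strand: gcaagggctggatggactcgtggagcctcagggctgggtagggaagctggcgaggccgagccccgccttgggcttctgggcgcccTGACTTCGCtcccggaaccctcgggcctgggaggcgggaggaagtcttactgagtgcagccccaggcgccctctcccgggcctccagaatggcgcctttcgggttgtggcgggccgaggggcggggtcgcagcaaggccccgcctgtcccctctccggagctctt

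Among the 5 genes of haem, quinone and iron handling, FTL, FTH1 and NQO1 fell, HMOX1 rose and OSGIN1 did not pass. FTL encodes the light chain of ferritin, the iron storage shell. It stood at 891, 859 and 834 CPM in GFP and 593, 585 and 621 CPM in BMI1 replicates 1, 2 and 3. The lowest GFP library lay far above the highest BMI1 library, and FTL fell 1.44-fold (log2 fold change -0.52, SE 0.04, adjusted p = 1.3e-06). FTH1 encodes the heavy chain, which oxidises iron for storage. It stood at 1063, 1103 and 1108 CPM in GFP and 812, 808 and 833 CPM in BMI1 replicates 1, 2 and 3, a 1.33-fold fall with no overlap (log2 fold change -0.42, SE 0.04, adjusted p = 3.3e-06). The FTL and FTH1 calls held in each of 15 alternative analyses, with log2 fold changes between -0.58 and -0.49 for FTL and between -0.43 and -0.41 for FTH1.

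Per kilobase of transcript, FTL and FTH1 were the most abundant of the listed genes, at 981 ± 32.1 and 888 ± 19.8 CPM per kb in GFP cells and 683 ± 21.7 and 666 ± 10.9 CPM per kb in BMI1 cells (SD, n = 3). On this scale FTL stood above FTH1 in GFP cells, while in BMI1 cells their spreads overlapped. The order depends on the transcript lengths used. In CPM, not divided by length, FTH1 was the higher, with means of 1091 and 818 CPM in GFP and BMI1 cells against 861 and 600.0 CPM for FTL. The ferritin rows can share reads with copies: GENCODE 29 names 25 pseudogenes after FTH1 and 16 after FTL, and 56.6% of FTH1 exon bases overlap BEST1 on the opposite strand. The BEST1 row held 3.70 ± 0.66 and 2.46 ± 0.27 CPM in GFP and BMI1 cells, and the pseudogene rows FTH1P3 and FTLP10 lay under 1 CPM in each library.

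NQO1 encodes a quinone reductase and is a widely used readout of NRF2. It stood at 958, 982 and 974 CPM in GFP and 857, 895 and 845 CPM in BMI1 replicates 1, 2 and 3. The libraries did not overlap and NQO1 fell 1.12-fold (log2 fold change -0.17, SE 0.04, adjusted p = 0.00575). In GENCODE 29, 18.4% of its exon bases overlap AC092115.2 on the opposite strand. HMOX1 encodes haem oxygenase 1, which frees iron from haem and is controlled by NRF2 and by the repressor BACH1. It stood at 13.5, 13.4 and 13.4 CPM in GFP and 15.2, 15.03 and 17.5 CPM in BMI1 replicates 1, 2 and 3. Each BMI1 library was higher, BMI1 replicate 3 the most, and HMOX1 rose 1.19-fold (log2 fold change 0.25, SE 0.08, adjusted p = 0.0327). That call was lost without GFP replicate 2 (adjusted p = 0.0993), GFP replicate 3 (0.0876), BMI1 replicate 1 (0.0517) or BMI1 replicate 3 (0.158), with DESeq2 (0.0882), after GC correction (0.052) and with GC correction and the replicate number as a block (0.0502), while the log2 fold change stayed between 0.17 and 0.29. OSGIN1, a regulator of oxidative growth arrest, had 4.57 ± 0.71 and 3.59 ± 0.28 CPM in GFP and BMI1 cells (log2 fold change -0.34, SE 0.15, adjusted p = 0.116) and passed after GC correction at -0.46 (adjusted p = 0.016).

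**Figure D3:**
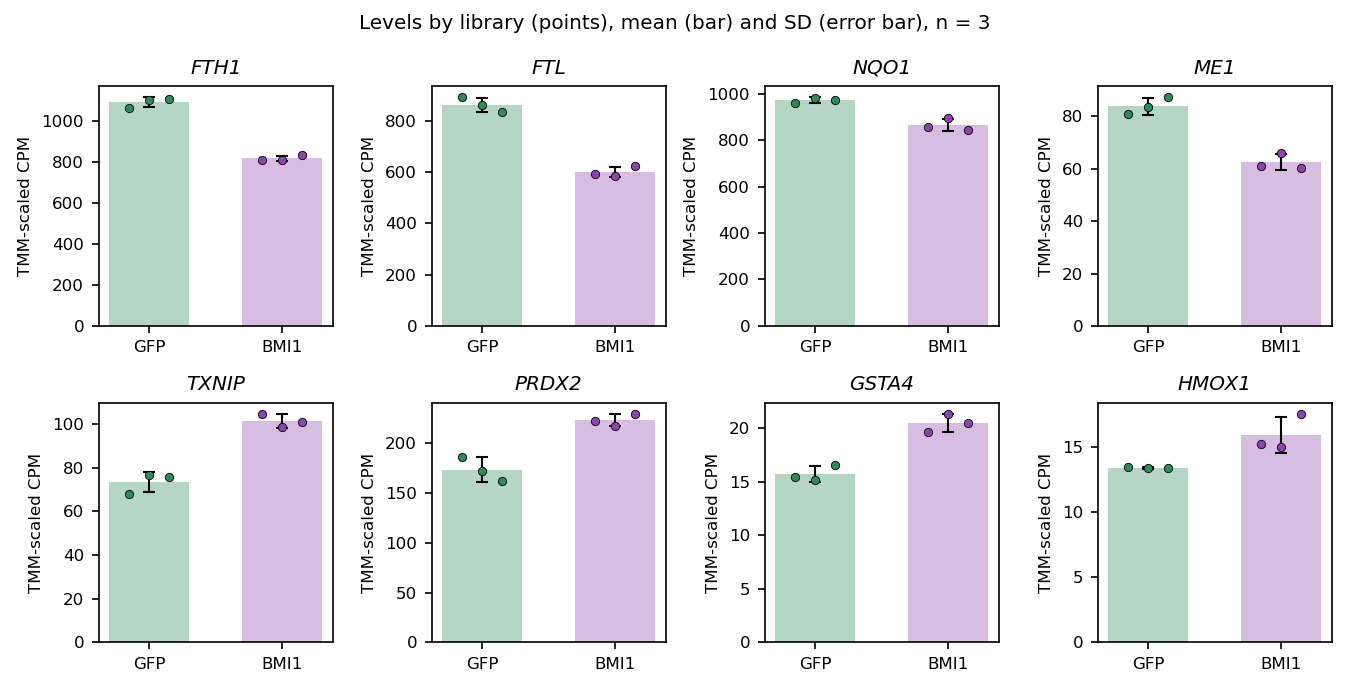
TMM-scaled CPM of FTH1, FTL, NQO1, ME1, TXNIP, PRDX2, GSTA4 and HMOX1 by group, with each library as a point, the mean as a bar from 0 and the SD as an error bar (n = 3). The first 4 genes lie lower in every BMI1 library and the last 4 higher, with GFP and BMI1 means of 861 and 600.0 CPM for FTL and of 73.3 and 101 CPM for TXNIP.

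Of 4 enzymes that supply NADPH or sugar phosphates for it, ME1 and TKT fell and PGD and TALDO1 did not pass. ME1 encodes the cytosolic malic enzyme, which makes NADPH from malate. It stood at 80.7, 83.4 and 87.2 CPM in GFP and 61.2, 66.0 and 60.3 CPM in BMI1 replicates 1, 2 and 3. All BMI1 libraries lay well below the GFP libraries, and ME1 fell 1.34-fold (log2 fold change -0.42, SE 0.06, adjusted p = 0.000193). TKT, transketolase of the non-oxidative pentose phosphate branch, stood at 942, 863 and 839 CPM in GFP and 777, 738 and 799 CPM in BMI1 replicates 1, 2 and 3. GFP replicate 1 was the highest and the groups did not overlap (log2 fold change -0.19, SE 0.05, adjusted p = 0.0122). TALDO1, the transaldolase of the same branch, had 103 ± 4.49 and 95.5 ± 2.03 CPM in GFP and BMI1 cells with no overlap (adjusted p = 0.183), and passed after GC correction at a log2 fold change of -0.15 (adjusted p = 0.0037). PGD, a dehydrogenase of the oxidative branch, had 171 ± 8.41 and 179 ± 1.51 CPM (adjusted p = 0.293), and passed without GFP replicate 1 at 0.12 (adjusted p = 0.0425), against 0.05 with GC correction (adjusted p = 0.184).

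The thioredoxin system and the peroxiredoxins moved in both directions, with 2 rises, 2 falls and 7 that did not pass among 11 genes. By share, 18.2% rose and 18.2% fell, against 17.1% and 9.32% of all tested genes. TXNIP encodes a protein that binds and inhibits thioredoxin and responds to glucose. It stood at 68.0, 76.5 and 75.5 CPM in GFP and 105, 98.4 and 101 CPM in BMI1 replicates 1, 2 and 3. Without overlap it rose 1.38-fold (log2 fold change 0.46, SE 0.06, adjusted p = 9.99e-05). Thioredoxin itself, TXN, varied within the groups, at 281, 332 and 342 CPM in GFP and 268, 311 and 281 CPM in BMI1 replicates 1, 2 and 3. The groups overlapped because GFP replicate 1 lay low (log2 fold change -0.15, SE 0.07, adjusted p = 0.146), and TXN passed without that library at -0.23 (adjusted p = 0.00173) and with the replicate number as a block at -0.15 (adjusted p = 0.0478), but with GC correction it stood at -0.06 (adjusted p = 0.167).

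TXNRD1, the cytosolic reductase that recycles thioredoxin with NADPH, stood at 302, 325 and 335 CPM in GFP and 288, 288 and 278 CPM in BMI1 replicates 1, 2 and 3. The libraries did not overlap, and TXNRD1 fell 1.13-fold (log2 fold change -0.17, SE 0.05, adjusted p = 0.0159). The call was lost without GFP replicate 2 (adjusted p = 0.0742), GFP replicate 3 (0.0719), BMI1 replicate 1 (0.0589) or BMI1 replicate 3 (0.0774). Its mitochondrial counterpart TXNRD2 had 21.5 ± 1.63 and 19.8 ± 1.17 CPM in GFP and BMI1 cells (adjusted p = 0.277) and passed after GC correction at -0.21 (adjusted p = 0.00535).

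Most peroxiredoxins reduce peroxides with the help of thioredoxin, and the 2 peroxiredoxins that passed went opposite ways. PRDX2 stood at 186, 172 and 162 CPM in GFP and 223, 217 and 229 CPM in BMI1 replicates 1, 2 and 3. It rose 1.29-fold with no overlap (log2 fold change 0.36, SE 0.05, adjusted p = 0.00028), and 30% of its exon bases overlap AC018761.2 on the opposite strand. PRDX1, the most abundant peroxiredoxin per kilobase at 390.5 ± 7.63 CPM per kb in GFP cells, stood at 472, 490.4 and 483 CPM in GFP and 423, 438 and 437 CPM in BMI1 replicates 1, 2 and 3. It fell 1.11-fold with no overlap (log2 fold change -0.16, SE 0.04, adjusted p = 0.00991), a call lost without GFP replicate 2 (adjusted p = 0.0581) or BMI1 replicate 1 (0.0701). In GENCODE 29, 30.3% of PRDX1 exon bases overlap MMACHC on the opposite strand, and that row stood at 24.4 ± 2.37 and 25.7 ± 0.35 CPM.

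The other peroxiredoxins did not pass. PRDX4, of the endoplasmic reticulum, had 89.4 ± 0.43 and 97.3 ± 1.09 CPM in GFP and BMI1 cells with no overlap (log2 fold change 0.12, adjusted p = 0.0922), and passed without GFP replicate 1 (adjusted p = 0.041) and after GC correction (0.00547). PRDX5 had 186 ± 8.49 and 201 ± 7.91 CPM, also without overlap (adjusted p = 0.109), and passed without GFP replicate 1 (adjusted p = 0.0154) but not with GC correction (log2 fold change 0.02, adjusted p = 0.557). The mitochondrial PRDX3 and the cytosolic PRDX6 had log2 fold changes of -0.07 and -0.01, and PRDX3 passed without GFP replicate 1 at -0.13 (adjusted p = 0.0476), against 0.01 with GC correction (adjusted p = 0.876). SRXN1, the sulfiredoxin that repairs over-oxidised peroxiredoxins and a well known NRF2 target, stood at 67.3, 63.7 and 61.1 CPM in GFP and 67.5, 63.9 and 64.9 CPM in BMI1 replicates 1, 2 and 3. Its groups overlapped, with a log2 fold change of 0.03 (SE 0.06, adjusted p = 0.727), and 85% of its exon bases overlap AL121758.1 on the same strand.

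No gene of glutathione synthesis and recycling passed. GCLC, the catalytic subunit of the rate-limiting ligase, stood at 48.5, 49.3 and 50.8 CPM in GFP and 47.4, 47.1 and 41.9 CPM in BMI1 replicates 1, 2 and 3. The groups did not overlap, BMI1 replicate 3 being the lowest (log2 fold change -0.13, SE 0.06, adjusted p = 0.16). GCLM, the modifier subunit of the same ligase, stood at 28.4, 29.1 and 30.5 CPM in GFP and 25.3, 28.8 and 24.8 CPM in BMI1 replicates 1, 2 and 3. BMI1 replicate 2 lay within the GFP range (log2 fold change -0.16, SE 0.07, adjusted p = 0.102), and GCLM passed without it at -0.23 (adjusted p = 0.0242). GC correction gave log2 fold changes of -0.08 for GCLC (adjusted p = 0.211) and -0.07 for GCLM (adjusted p = 0.219). GSS, the synthetase of the second step, had 146 ± 6.49 and 152 ± 3.06 CPM in GFP and BMI1 cells (adjusted p = 0.423), and GSR, the reductase that regenerates glutathione, 65.3 ± 1.96 and 65.6 ± 1.03 CPM (adjusted p = 0.964).

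Many, though not all, glutathione peroxidases reduce peroxides at the expense of glutathione. The 2 genes of this family that rose were of low abundance. They are 40.0% of the 5 tested, against 17.1% of all tested genes. None of the family fell, against 9.32% of all tested genes. GPX7, a peroxidase of the endoplasmic reticulum, stood at 5.85, 5.88 and 6.13 CPM in GFP and 8.03, 8.13 and 9.41 CPM in BMI1 replicates 1, 2 and 3. All BMI1 libraries were higher, and GPX7 rose 1.43-fold (log2 fold change 0.52, SE 0.10, adjusted p = 0.0023). GPX3, the secreted peroxidase, stood at 11.3, 9.62 and 10.9 CPM in GFP and 13.4, 13.6 and 13.0 CPM in BMI1 replicates 1, 2 and 3. It rose 1.26-fold with no overlap (log2 fold change 0.33, SE 0.08, adjusted p = 0.0104), but did not pass without GFP replicate 2 (adjusted p = 0.061).

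The abundant peroxidases did not pass. GPX4, which reduces lipid peroxides in membranes and guards against ferroptosis, stood at 115, 106 and 101 CPM in GFP and 100.2, 96.0 and 102 CPM in BMI1 replicates 1, 2 and 3. Its groups overlapped (log2 fold change -0.11, SE 0.06, adjusted p = 0.21), and it passed after GC correction at -0.22 (adjusted p = 0.000176), its transcripts having a GC content of 62.9%. GPX1, the main cytosolic peroxidase, had 185 ± 9.27 and 188 ± 14.0 CPM in GFP and BMI1 cells (log2 fold change 0.03, adjusted p = 0.779). GC correction turned its direction, to -0.08 (adjusted p = 0.0554), and with the replicate block added it passed as a fall at -0.08 (adjusted p = 0.0412). GPX8, of the endoplasmic reticulum like GPX7, had 50.3 ± 4.11 and 55.3 ± 3.29 CPM (log2 fold change 0.14, adjusted p = 0.186), and passed after GC correction at 0.22 (adjusted p = 0.00114). GPX2, known from the gut, fell below the filter on low counts, with 21 counts over the GFP and 22 over the BMI1 libraries.

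Glutathione transferases, which couple glutathione to electrophiles, held 5 of the 10 rises: GSTA4, GSTM1, GSTM3, GSTM4 and MGST2. One of the 11, MGST1, fell and 5 did not pass. By share, 45.5% of these transferases rose and 9.09% fell, against 17.1% and 9.32% of all tested genes. The group was not tested as a set. The share counts GSTM1, GSTM3 and GSTM4 as separate rises, which they may not be if their rows share reads. GSTA4, an alpha class enzyme that clears products of lipid peroxidation, stood at 15.5, 15.2 and 16.6 CPM in GFP and 19.6, 21.3 and 20.5 CPM in BMI1 replicates 1, 2 and 3. It rose 1.30-fold with no overlap (log2 fold change 0.37, SE 0.07, adjusted p = 0.00122).

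The mu class genes lie side by side on chromosome 1 and resemble each other closely, so that reads may be split among their rows. GSTM4 stood at 22.0, 20.2 and 20.6 CPM in GFP and 24.5, 25.3 and 27.4 CPM in BMI1 replicates 1, 2 and 3. It was higher in each BMI1 library (log2 fold change 0.30, SE 0.07, adjusted p = 0.0041). GSTM1 had 21.2, 21.6 and 20.1 CPM in GFP and 24.9, 24.5 and 26.3 CPM in BMI1 replicates 1, 2 and 3, a 1.21-fold rise with no overlap (adjusted p = 0.0056), and 28.3% of its exon bases overlap AC000032.1 on the opposite strand. GSTM3 had 18.8, 19.2 and 20.1 CPM in GFP and 23.5, 24.5 and 22.6 CPM in BMI1 replicates 1, 2 and 3, likewise a 1.21-fold rise (adjusted p = 0.0055). GSTM2, the weakest of them at 4.41 ± 0.04 CPM in GFP cells, had a log2 fold change of 0.23 and did not pass (SE 0.12, adjusted p = 0.189). Summed over these 4 rows, which a split of reads among them cannot move, the level was 65.6 ± 0.77 and 79.7 ± 1.42 CPM in GFP and BMI1 cells (SD, n = 3), a ratio of 1.21.

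The microsomal transferases differed among themselves. MGST1, a membrane enzyme with transferase and peroxidase activity, stood at 69.2, 76.6 and 76.7 CPM in GFP and 60.2, 62.1 and 58.6 CPM in BMI1 replicates 1, 2 and 3. It fell 1.23-fold with no overlap (log2 fold change -0.30, SE 0.06, adjusted p = 0.00308). Its transcripts have a GC content of 37.3%, and GC correction brought the change to -0.19 (adjusted p = 0.00294). MGST2 stood at 14.8, 15.4 and 13.5 CPM in GFP and 17.5, 16.6 and 17.1 CPM in BMI1 replicates 1, 2 and 3 and rose 1.18-fold (adjusted p = 0.0327), a call lost without GFP replicate 3 (adjusted p = 0.157), BMI1 replicate 1 (0.126) or BMI1 replicate 3 (0.0889) and with DESeq2 (0.1). MGST3 had a log2 fold change of 0.02 (adjusted p = 0.85).

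GSTP1 and GSTO1, the transferases with the highest levels, did not pass, nor did the less abundant GSTT1. GSTP1, the pi class enzyme and the most abundant transferase per kilobase at 346 ± 30.2 CPM per kb in GFP cells, had 333 ± 29.1 and 315 ± 14.8 CPM in GFP and BMI1 cells (log2 fold change -0.08, adjusted p = 0.381), and passed after GC correction at -0.18 (adjusted p = 9.11e-05). GSTO1, of the omega class, had 119.7 ± 6.71 and 119 ± 1.37 CPM (adjusted p = 0.878). GSTT1, a theta class gene that is absent from many human genomes, was expressed in this line at 16.8 ± 1.36 and 17.4 ± 1.76 CPM in GFP and BMI1 cells (adjusted p = 0.654).

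Superoxide dismutases and catalase did not pass. SOD1, the cytosolic enzyme, had 164 ± 9.81 and 152 ± 6.76 CPM in GFP and BMI1 cells (log2 fold change -0.11, adjusted p = 0.151) and passed without GFP replicate 1 at -0.16 (adjusted p = 0.0141), against -0.07 with GC correction (adjusted p = 0.0891). SOD3, the extracellular enzyme, had 53.8, 51.2 and 51.9 CPM in GFP and 53.5, 51.9 and 65.1 CPM in BMI1 replicates 1, 2 and 3, so that only BMI1 replicate 3 stood apart (adjusted p = 0.292). CAT, the peroxisomal catalase, had 115 ± 3.43 and 112 ± 4.10 CPM (adjusted p = 0.612).

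**Figure D4:**
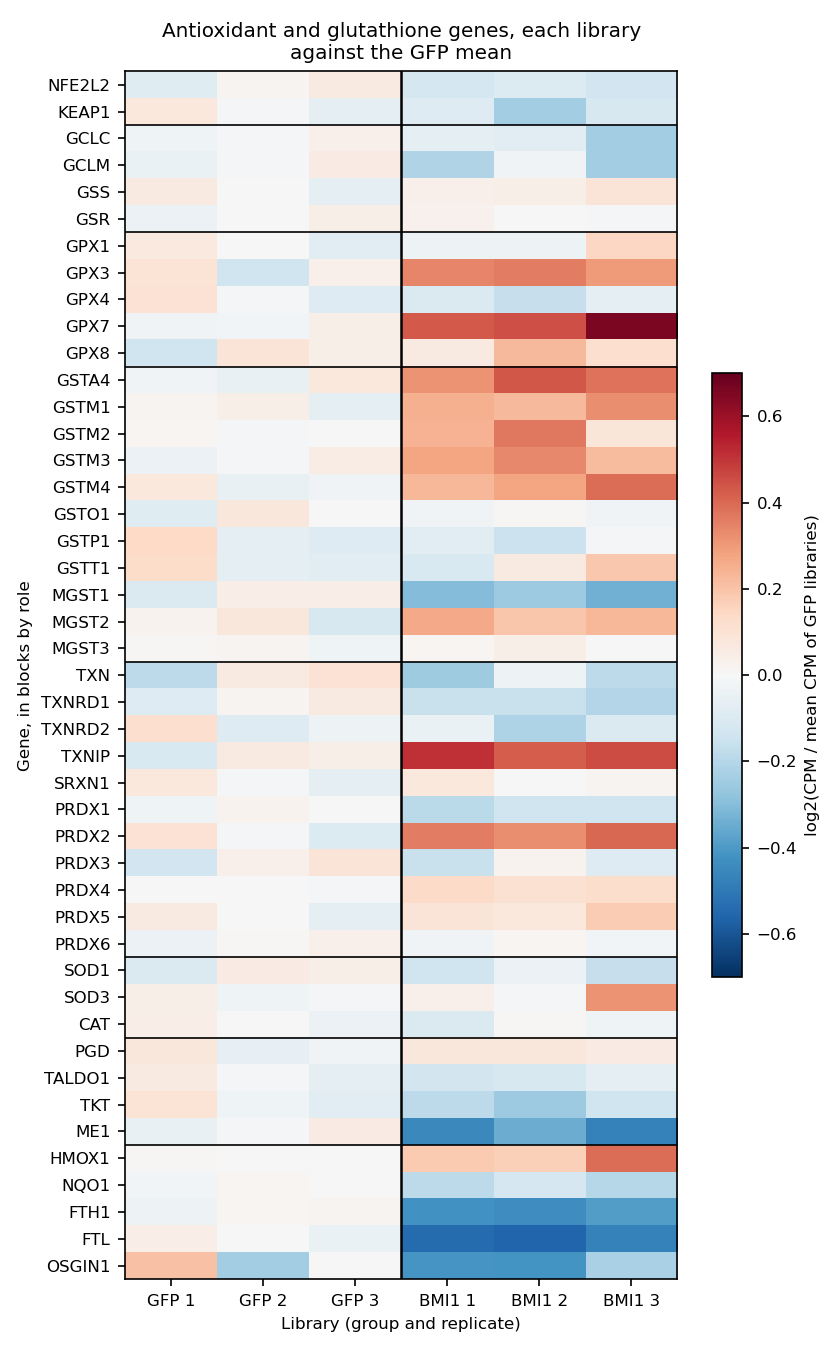
Log2 ratio of each library's CPM to the mean of the GFP libraries (colour) for the 45 tested genes (rows, in blocks by role) in the 6 libraries (columns). Ferritins and ME1 are lower in all BMI1 libraries, TXNIP, PRDX2, GSTA4 and GSTM1 to GSTM4 are higher, and the blocks of regulators, glutathione synthesis, superoxide dismutases and catalase hold no called gene.

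A wider list of 99 other genes of NRF2 control, cystine and glutathione turnover, NADPH supply, conjugation, export and iron was set beside them. Of 88 tested, 17 rose, 12 fell and 59 did not pass, which is 33.0% called against 26.4% of all tested genes, with a median log2 fold change of 0.01. By group, rises and falls were 1 and 2 of 14 regulators, 3 and 5 of 17 tested genes of cystine uptake and glutathione turnover, 4 and 1 of 13 thioredoxin, methionine sulfoxide and sestrin genes, 2 and 1 of 12 NADPH genes, 5 and 1 of 19 tested quinone, carbonyl and haem enzymes, and 2 and 1 of 5 exporters, while of 2 tested iron genes TFRC fell. The other 4 tested transferases and peroxidases and the other 2 superoxide genes did not pass. By direction, 19.3% of the tested wider list rose and 13.6% fell, against 17.1% and 9.32% of all tested genes. The groups are small, and none was tested as a set.

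The steepest rises of the wider list were in the aldo-keto reductases AKR1C1, AKR1C2 and AKR1C3, which reduce carbonyls and steroids and are established NRF2 targets in human cells. AKR1C2 stood at 10.1, 9.54 and 9.15 CPM in GFP and 40.2, 44.5 and 42.8 CPM in BMI1 replicates 1, 2 and 3, a 4.45-fold rise (log2 fold change 2.15, SE 0.07, adjusted p = 5.89e-10). AKR1C1 rose 3.14-fold, from 7.67 ± 0.48 to 24.1 ± 0.97 CPM (adjusted p = 1.08e-08). AKR1C3 rose 1.82-fold, from 9.37 ± 0.65 to 17.1 ± 0.54 CPM (adjusted p = 4.58e-06). These genes are near copies of each other, and the split of reads between AKR1C1 and AKR1C2 is uncertain. Their sum was 26.6 ± 1.02 and 83.7 ± 3.60 CPM in GFP and BMI1 cells, a ratio of 3.15. OPLAH, which recycles 5-oxoproline to glutamate in the glutathione cycle, rose 1.70-fold, from 7.19 ± 0.40 to 12.2 ± 0.83 CPM (adjusted p = 4.13e-05).

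The most strongly lowered genes of the wider list included an importer of cystine, an importer of iron and the exporter ABCC2, while ABCC3 (1.40-fold, adjusted p = 0.00322) and ABCC4 (1.19-fold, adjusted p = 0.0145), exporters chosen for mention after their values were seen, rose. ABCC2, an exporter of glutathione and glucuronide conjugates, stood at 46.4, 44.9 and 44.0 CPM in GFP and 22.5, 24.8 and 21.9 CPM in BMI1 replicates 1, 2 and 3, a 1.96-fold fall with no overlap (log2 fold change -0.97, SE 0.06, adjusted p = 1.71e-07). PIR, an iron-binding nuclear protein and NRF2 target, fell 1.54-fold, from 45.2 ± 2.36 to 29.4 ± 0.98 CPM (adjusted p = 6.92e-06). TFRC, the transferrin receptor that takes up iron, fell 1.46-fold, from 207 ± 15.4 to 142 ± 5.32 CPM (adjusted p = 1.78e-05). SLC7A11, the cystine-glutamate antiporter that feeds glutathione synthesis, stood at 109, 126 and 128 CPM in GFP and 83.6, 93.4 and 86.5 CPM in BMI1 replicates 1, 2 and 3. It fell 1.38-fold with no overlap (log2 fold change -0.47, SE 0.07, adjusted p = 0.00028).

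SQSTM1, the autophagy receptor p62 that binds KEAP1 and is itself an NRF2 target, fell 1.17-fold, from 347 ± 16.6 to 296 ± 7.47 CPM (adjusted p = 0.00242). BACH1, the repressor that competes with NRF2, had 52.1 ± 3.96 and 54.8 ± 2.03 CPM (adjusted p = 0.485) and passed after GC correction at 0.17 (adjusted p = 0.00342).

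**Figure D5:**
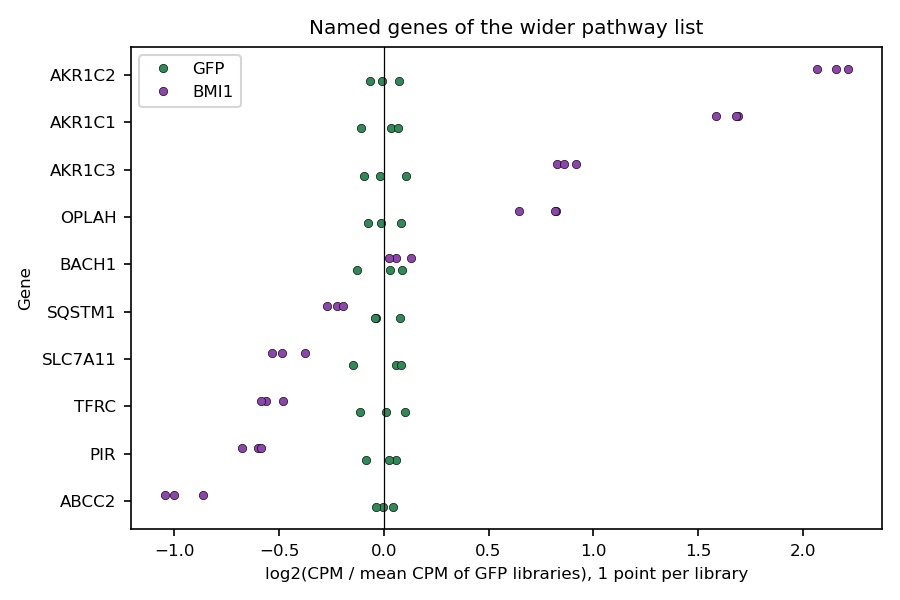
Log2 ratio of CPM to the GFP mean (x axis) for 10 named genes of the wider list (y axis), 1 point per library coloured by group. The 3 AKR1C genes and OPLAH lie to the right in all BMI1 libraries, ABCC2, PIR, TFRC, SLC7A11 and SQSTM1 to the left, and the groups of BACH1 overlap.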

How the data were processed

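RNA-seq libraries of A375 cells (3 GFP, 3 BMI1) were analysed from a table of estimated counts per gene symbol that the authors deposited. Build hg19, Bowtie 1.0.1 and RSEM 1.2.12 stand in the submitters' processing notes. The sources used here do not give the strand setting or annotation. Titles gave the groups, and 0 columns were left unused.

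Counts were rounded. edgeR 4.0.16 in R 4.3.3 ran filterByExpr with its defaults, TMM scaling and the quasi-likelihood test over 15079 genes, with Benjamini-Hochberg adjustment over all of them. Unless a sentence names another tool, adjusted p-values are edgeR's. Standard errors are the absolute log2 fold change over the square root of F. A count of 0 allows up to 3 counts, 0.0994 to 0.149 CPM by library, for counting error only.

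The genes and lists were chosen with earlier results of these data known. Values by library are given for genes that passed and for a fixed set (NFE2L2, KEAP1, HMOX1, NQO1, GCLC, GCLM, SRXN1, TXNRD1, TXNIP, GPX4 and FTH1). They are also given for TXN and SOD3, which were outside this rule. The wider list names the 4 raised and 4 lowered genes with the smallest p, and 4 genes whatever their values: SLC7A11, BACH1, SQSTM1 and another that is not reported here.

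Alternatives were DESeq2 size factors, upper-quartile scaling, DESeq2 1.42.0, limma-voom (limma 3.58.1), leaving out each library, no filter, a minimum of 1 CPM in 3 libraries, the replicate number as a block, and a lowess correction for GC content, alone and with the block. GC came from GENCODE 29 transcripts (GRCh38), for 94.6% of tested genes. Levels per kilobase use the longest principal transcript there, which may differ from the authors' gene models. Figures used matplotlib 3.10.9.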

Additional observations from a re-analysis of the deposited data

How the results depend on the processing

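Of 18 called genes of the list, 13 kept their call and direction in all 15 alternatives, and HMOX1, MGST2, TXNRD1, PRDX1 and GPX3 lost it in at least 1. Of 27 genes that did not pass, 15 passed in the same direction in at least 1 alternative. In addition, GPX1 passed with its sign changed, to -0.0842 on the log2 scale (adjusted p = 0.0412, edgeR), under GC correction with the replicate block. How many of all tested genes kept or gained a call in this way was not counted. The counts for the list are therefore not read as a trait of it. Over all tested genes the share lowered ran from 4.70% without BMI1 replicate 3 to 17.0% with GC correction, against 9.32% in the main fit. Leaving out a library gave between 8 and 13 rises and between 6 and 12 falls in the list, between 11 and 19 rises and between 6 and 15 falls in the wider list, and between 2046 and 3193 rises and between 711 and 2451 falls over all genes. Over all genes 2451 fell without GFP replicate 1, 769 without GFP replicate 2, 885 without GFP replicate 3, 727 without BMI1 replicate 1 and 711 without BMI1 replicate 3. In the wider list 6 fell without GFP replicate 2 or BMI1 replicate 3, 7 without GFP replicate 3 or BMI1 replicate 1, and 11 rose without BMI1 replicate 3. GC correction raised the falls from 1405 to 2567 over all genes, from 8 to 14 in the list and from 12 to 20 in the wider list. With the replicate block added these were 2548, 15 and 20; the cause was not tested. The labels name no pairing, so the replicate numbers were not taken as one. Deviations of same-numbered libraries correlated at 0.07, 0.09 and -0.06, and those of differently numbered libraries between -0.18 and 0.14. With the replicate block alone, 10 genes of the list rose and 9 fell, 16 and 10 in the wider list and 2580 and 1408 over all genes.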
